A study of Mus musculus with 6 samples.

Results

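The 10 genes described here are regulators of neuronal splicing and messenger RNA handling: Rbfox1, Rbfox2, Rbfox3, Elavl2, Elavl3, Elavl4, Nova1, Nova2, Ptbp1 and Ptbp2. They were taken by gene name from a table of 31469 rows, in which each name had 1 row. The table gives RNA sequencing levels in 6 libraries. The cells were neurons of C57BL/6 mice that express parvalbumin, mostly muscle sense neurons, taken at postnatal day 21 from the lumbar 4 dorsal root ganglion. Of these, 3 were Dicer knockout libraries, in which Dicer was removed by a Cre recombinase driven from the parvalbumin gene, and 3 were wild-type libraries. Cre therefore acted in cells that express parvalbumin. Whether wild-type animals carried Cre or a floxed allele, and whether each library came from its own animal, is not stated in the labels. The p-values therefore cover the spread among these 6 libraries and no more, which may be technical in part.

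Rbfox, Nova and Ptbp proteins bind pre-messenger RNA and decide which exons are kept, while the neuronal Elavl proteins, also called Hu proteins, bind U-rich and AU-rich stretches and act on splicing, stability and translation. Ptbp1 represses neuronal exons in most cells outside the nervous system, and it also keeps its paralog Ptbp2 low by promoting an exon skip that sends the Ptbp2 transcript to decay. In developing neurons of the mouse, the microRNA miR-124 lowers Ptbp1, and Ptbp2 then rises. Dicer cuts precursors into mature microRNAs, which pair through bases 2 to 8, the seed, with sites in target transcripts and lower them.

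Short stretches of the 3' untranslated regions (UTRs) are shown first, because microRNAs, the products of Dicer, are known to act through sites there. Seeds of 18 microRNAs were searched in the longest annotated 3' UTR of each member (GENCODE vM21, GRCm38). The microRNAs were picked from general knowledge of neurons and muscle, and miR-133b was among them for its known action on Ptbp2 in mouse muscle cells. No site of miR-124 was searched for. Mature sequences are those of RefSeq on GRCm38.p6, with the seed in capitals.
mmu-miR-133b-3p: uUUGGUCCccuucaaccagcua
mmu-miR-181a-5p: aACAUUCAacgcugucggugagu
mmu-miR-30a-5p: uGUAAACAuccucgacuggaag
mmu-miR-182-5p: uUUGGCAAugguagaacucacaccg

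The sites below are matches to the seed followed by an A, in capitals, read 5' to 3' on the strand of the transcript. They are the matches in the Ptbp pair and in Rbfox1, and a matching pair in Elavl2 and Elavl4.
Ptbp1, miR-133b site, chr10:79864005-79864032, plus strand: tcaaaattttGGACCAAAgtttagcttt
Ptbp2, miR-133b site, chr3:119719331-119719358, minus strand: caaccaggtgGGACCAAAgtttatgtgc
Ptbp2, miR-181a site, chr3:119719746-119719773, minus strand: gattcagttaTGAATGTAggcattagtt
Rbfox1, miR-30a site, chr16:7411283-7411310, plus strand: catgttgtccTGTTTACAagttaaccta
Elavl2, miR-182 site, chr4:91252581-91252608, minus strand: aagcagtaccTTGCCAAAgagataagag
Elavl4, miR-182 site, chr4:110205640-110205667, minus strand: attaacattgTTGCCAAAgaggtggtct

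All of these lie in the 3' UTR, within the gene spans chr10:79854427-79864771 for Ptbp1, chr3:119718742-119784466 for Ptbp2 and chr16:5885355-7411526 for Rbfox1. Ptbp1 and Ptbp2 held the miR-133b site within a shared run of 13 bases, and Elavl2 and Elavl4 the miR-182 site within a shared run of 11 bases. Rbfox2 also held a miR-182 site followed by an A, not shown. Its shared run of 8 bases was no longer than the site that was searched for. Over the 3' UTRs of tested genes, matches followed by an A were in 3.38% for miR-133b and 5.51% for miR-182. For miR-181a and miR-30a these shares were 6.37% and 8.72%. The 7-base miR-133b match GGACCAA, searched on the transcript strand, was in 9.04% of the 3' UTRs of 11515 tested genes. Matches to TTGCCAA for miR-182, TGAATGT for miR-181a and TGTTTAC for miR-30a were in 13.2%, 19.2% and 17.1% of them. The miR-133b matches of Ptbp1 and Ptbp2 overlap a match to miR-9 (ACCAAAG), so the same letters count for both seeds. The 1586 bases of the Ptbp2 UTR held 7-base matches to 7 of the 18 seeds (miR-9, miR-26a, miR-30a, miR-128, miR-132, miR-133b and miR-181a). Among the 2942 tested genes with a 3' UTR of 1000 to 2000 bases, 0.85% held matches to 7 seeds or more. This cutoff and length range were set to the Ptbp2 UTR, and miR-133b was picked for its action on Ptbp2. The share is therefore a description and no test. Rbfox3 (1477 bases) held 2, for miR-7a and miR-181a, and neither was followed by an A; Rbfox1 (1713 bases) held 2 and Ptbp1 (1494 bases) held 4. The median over all tested UTRs was 2 seeds at a median length of 1250 bases. A match is a description of the letters and not a shown binding site, and mature microRNAs were not measured here.

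Levels are in TPM, a share of the library's transcripts scaled to 1000000, which divides by transcript length and so lets genes be compared within a library. Differences are knockout minus wild type on the log2(TPM + 1) scale, and a gene was called at a limma adjusted p below 0.05. In each library 13237 to 13960 rows reached 1 TPM, and on the log2 scale libraries correlated across tested rows at 0.963 to 0.973 among knockout, 0.949 to 0.968 among wild-type and 0.925 to 0.964 between groups. Dicer1 was at 23.96, 20.8 and 21.77 TPM in knockout libraries, below 36.68, 25.99 and 48.7 TPM in wild-type libraries, with a difference that did not pass (-0.68, limma adjusted p = 0.104); a whole-gene value does not isolate the deleted exons. Replicate 3 of each group had the Y-linked Ddx3y at 32.7 TPM (knockout) and 33.33 TPM (wild type), where the other libraries had at most 0.02 TPM. Xist was at 0 (knockout) and 0.06 TPM (wild type) in replicate 3, and at 22.19 to 69.53 TPM in the other libraries. The libraries of a group therefore did not all come from 1 animal, and sex differed within each group. Pvalb, the marker behind the Cre, was at 4.02, 3.69 and 13.98 TPM in knockout libraries, against 25.05, 19.69 and 23.11 TPM in wild-type libraries. Of 10 proprioceptor and neuronal markers, Pvalb, Runx3, Etv1 and Spp1 fell and 6 did not pass. Over all tested rows 3.17% were called lower. The pan-neuronal genes Snap25, Tubb3 and Uchl1 were among those 6 markers. All 10 differences were negative, and 6 were so at an unadjusted limma p below 0.05 (14.1% of all tested rows). These included Ntrk3 and Isl1, which did not pass after adjustment. The groups did not overlap for 7 of the 10 markers, against 28.9% of all tested rows. Without each library in turn, Spp1 was called in 6 of 6 fits, Etv1 in 5, Runx3 in 3 and Pvalb in 1. Sums over the markers of myelinating Schwann cells (8.94 to 24.2 TPM), fibroblasts (22.9 to 46.0), macrophages (3.08 to 8.76) and endothelial cells (12.5 to 24.1) were low in every library. Among these, C1qa (macrophage) and Cldn5 (endothelial) were at 0 throughout, while Lyz2 made up most of the macrophage sum (2.54 to 8.08 TPM) and Egfl7 most of the endothelial sum (12.01 to 22.54 TPM). The macrophage gene C1qb was at 0.64, 0.42 and 0.47 TPM in knockout libraries and at 0 in all wild-type libraries. Its mean of 0.255 TPM was too low for it to be tested. Lyz2 went the other way, at 4.45, 2.54 and 4.74 TPM in knockout and 7.04, 6.02 and 8.08 TPM in wild-type libraries. Its difference did not pass (-0.74, limma adjusted p = 0.15).

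By level, the members fell into an abundant and a scarce set. Elavl2, Elavl4, Rbfox1, Rbfox2, Rbfox3, Ptbp2 and Elavl3 had knockout means from 301 down to 90.3 TPM and wild-type means between 316 and 64.4 TPM. Nova1, Nova2 and Ptbp1 had means between 3.81 and 6.74 TPM in either group. The scarce genes stood at the 26th to 28.79th percentile of the 13787 tested rows, and the abundant ones between the 83.25th and 95.91st. In knockout libraries Ptbp2 (83.56 to 102.99 TPM) overlapped Elavl3 (80.73 to 99.27 TPM), whereas in wild-type libraries Ptbp2 (58.06 to 67.65 TPM) lay below Elavl3 (75.17 to 94.06 TPM). In knockout libraries Elavl2 overlapped Elavl4, and Elavl4 overlapped Rbfox1, while Rbfox1, Rbfox2, Rbfox3 and Ptbp2 were separate from one another. In wild-type libraries Rbfox1 overlapped Rbfox2, and Rbfox3 overlapped Elavl3. Nova2 overlapped both Nova1 and Ptbp1 in each group, whereas Nova1 lay above Ptbp1 in knockout libraries and overlapped it in wild-type libraries.

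**Figure D1:**
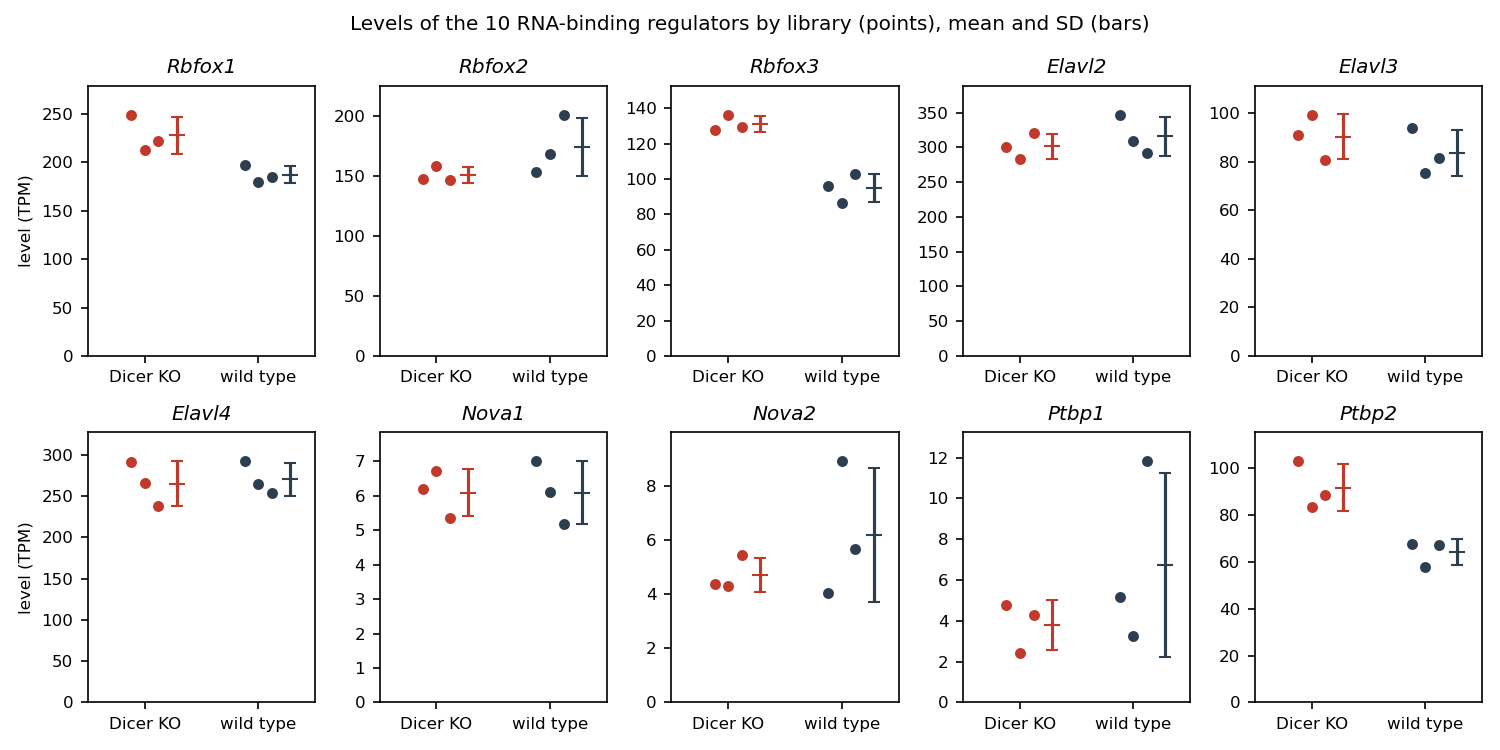
Level in TPM (vertical axes, from 0) of each of the 10 genes in 3 Dicer knockout libraries (red, left) and 3 wild-type libraries (dark, right); points are libraries and bars are the mean and SD. The groups separate for Rbfox1, Rbfox3 and Ptbp2 and overlap for the other 7.

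Of the Rbfox genes, Rbfox3 passed the test as higher in knockout libraries, and Rbfox1 and Rbfox2 did not pass. Rbfox3 encodes the neuronal nuclear antigen NeuN, a splicing factor found in most mature neurons. It was at 127.92, 136.18 and 129.18 TPM in knockout libraries, against 95.76, 86.41 and 102.54 TPM in wild-type libraries. All 3 knockout values lay above all 3 wild-type values, with a knockout mean of 131 ± 4.45 TPM and a wild-type mean of 94.9 ± 8.10 TPM (SD, n = 3 each). On the log2(TPM + 1) scale Rbfox3 rose by 0.46 (SE 0.11, 95% interval 0.21 to 0.72, limma adjusted p = 0.0496). This call lay at the threshold: it was lost without any single library (0 of 6 kept it), and it held in 5 of 18 alternatives (adjusted p from 0.0338 to 0.153), though the difference was positive in all 18. Without replicate 3 of both groups it was 0.53 (adjusted p = 0.144).

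Rbfox1, a paralog that acts on exons of channel and synaptic genes in brain, was at 248.92, 212.35 and 221.9 TPM in knockout libraries, against 196.81, 180.05 and 184.68 TPM in wild-type libraries. These groups did not overlap either, but the difference of 0.28 (SE 0.11, 95% interval 0.04 to 0.52) did not pass (limma adjusted p = 0.157). Rbfox2, the broadly expressed member of the family, was at 147.47, 158.26 and 146.58 TPM in knockout libraries and at 153.39, 167.99 and 200.79 TPM in wild-type libraries. Its groups overlapped, with wild-type replicate 3 the highest (difference -0.20, 95% interval -0.48 to 0.08, limma adjusted p = 0.374).

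Within the Rbfox family the share of Rbfox3 was larger and that of Rbfox2 smaller in knockout libraries. Rbfox3 supplied 25.7 ± 1.25% of the summed Rbfox TPM in knockout libraries and 20.8 ± 0.81% in wild-type libraries, and Rbfox2 supplied 29.6 ± 1.56% in knockout and 38.1 ± 3.41% in wild-type libraries (SD, n = 3 each). Rbfox1 was the most abundant paralog in 5 of 6 libraries, at 44.7 ± 2.79% in knockout and 41.1 ± 3.16% in wild-type libraries. The groups did not overlap for the Rbfox2 and Rbfox3 shares. The exact two-sided permutation p was 0.1 for each, the smallest that 3 against 3 libraries can give, and 0.267 after adjustment over the 8 shares tested in the 4 families. The Rbfox sum was 510 ± 13.5 TPM in knockout and 456 ± 28.2 TPM in wild-type libraries.

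**Figure D2:**
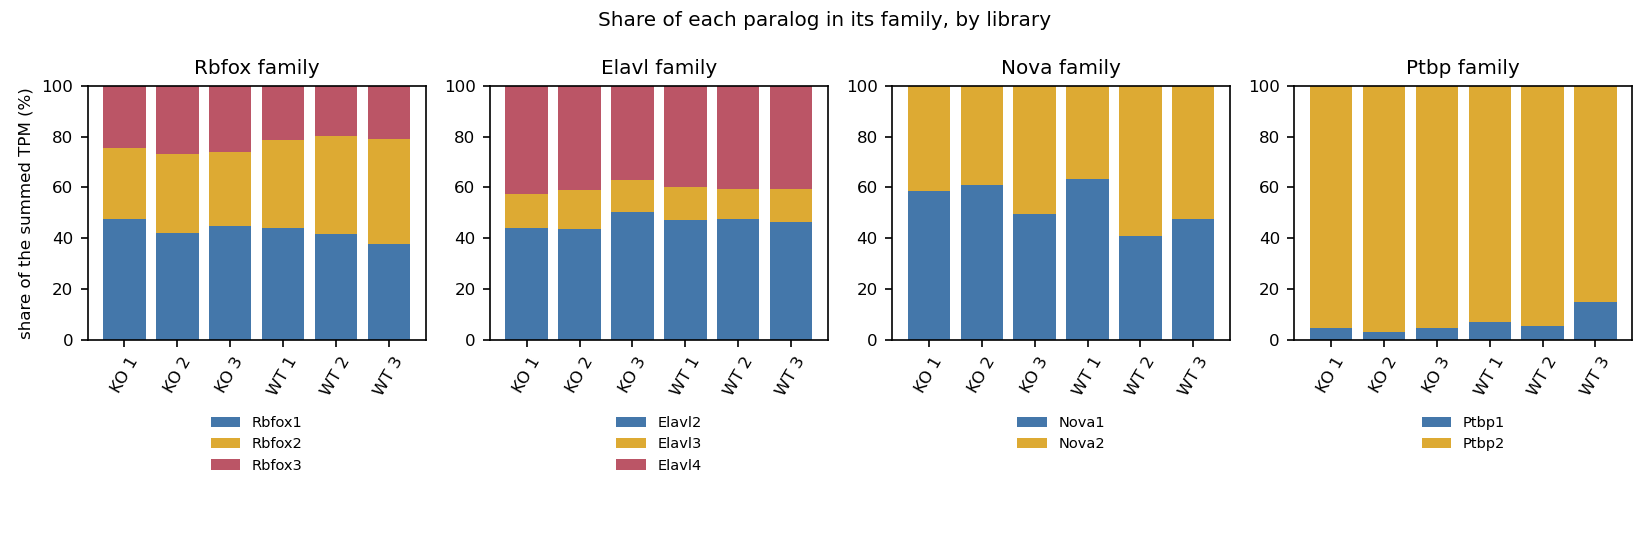
Share of each paralog (percent of the summed TPM of its family, vertical axis) in each library, with knockout libraries (KO) left of wild-type libraries (WT). The Rbfox2 part is smaller in each knockout library (28.1% to 31.2%) than in each wild-type library (34.4% to 41.1%), and Ptbp1 is a thin slice everywhere.

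The Ptbp pair was almost all Ptbp2. Ptbp2, the neuronal paralog also called nPTB, was at 102.99, 83.56 and 88.78 TPM in knockout libraries, against 67.65, 58.06 and 67.46 TPM in wild-type libraries. Each knockout library was above each wild-type library, at a mean of 91.8 ± 10.1 TPM in knockout and 64.4 ± 5.48 TPM in wild-type libraries (SD, n = 3 each). The difference of 0.50 on the log2 scale (SE 0.13, 95% interval 0.21 to 0.80), a ratio of 1.42, narrowly missed the threshold (limma adjusted p = 0.0598). That difference passed in 4 of 18 alternatives, namely with a filter at a mean of 5 TPM (adjusted p = 0.0496), median-of-ratios scaling (0.0338), quantile normalization (0.0357) and library weights (0.0479), and in none of the 6 fits that left out a library. Without replicate 3 of both groups the difference was 0.56 (adjusted p = 0.182).

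Ptbp1 was scarce, at 4.75, 2.43 and 4.26 TPM in knockout libraries and 5.16, 3.24 and 11.81 TPM in wild-type libraries. The groups overlapped, and wild-type replicate 3 stood above the other 5 libraries. The difference was -0.56 on the log2 scale with a wide interval of -1.51 to 0.38 (limma adjusted p = 0.453), and it was -0.12 without wild-type replicate 3. Ptbp1 did not rise detectably, though an increase of up to 0.38 lies within the interval.

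The balance of the pair, log2 of (Ptbp1 TPM + 1)/(Ptbp2 TPM + 1), was -4.18, -4.62 and -4.09 in knockout libraries, against -3.48, -3.80 and -2.42 in wild-type libraries. All 3 knockout values were lower, with means of -4.30 ± 0.29 in knockout and -3.23 ± 0.72 in wild-type libraries (SD, n = 3 each) and a difference of -1.07 (exact two-sided permutation p = 0.1, the smallest possible). Without wild-type replicate 3 the difference was -0.66, and without replicate 3 of both groups it was -0.76. In linear terms there were 21.7, 34.4 and 20.8 Ptbp2 transcripts per Ptbp1 transcript in knockout libraries and 13.1, 17.9 and 5.71 in wild-type libraries. Ptbp1 made up 3.94 ± 0.97% of the pair in knockout and 9.09 ± 5.11% in wild-type libraries, with groups that did not overlap; this difference of -5.15 percentage points was -2.25 without wild-type replicate 3.

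Transcripts of satellite glia, which form a sheath around each sensory neuron, varied in part as Ptbp1 did. The 12 marker genes of these cells summed to 667, 482 and 1062 TPM in knockout libraries, against 1451, 889 and 2028 TPM in wild-type libraries. Wild-type replicate 3 was highest for the sum as it was for Ptbp1, and replicate 2 was lowest within each group for both. In knockout replicates 1 and 3 the order was the opposite, with Ptbp1 at 4.75 and 4.26 TPM beside glial sums of 667 and 1062 TPM. Among the markers Fabp7 and Gja1 fell (limma adjusted p = 0.0412 and 0.0408; called in 2 and 0 of 6 fits without a library), and 11 of 12 had negative differences, Glul being the exception. With the mean level of the markers as a covariate the Ptbp1 difference was 0.15 (limma adjusted p = 0.84) and that of Ptbp2 was 0.60 (adjusted p = 0.107). As 11 of its 12 markers had negative differences, this covariate overlaps with genotype, and the fit cannot tell glial content from genotype. The part of glial RNA in the Ptbp1 values was not tested further. In bulk libraries, fewer cells of a type and less RNA per cell cannot be told apart.

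**Figure D3:**
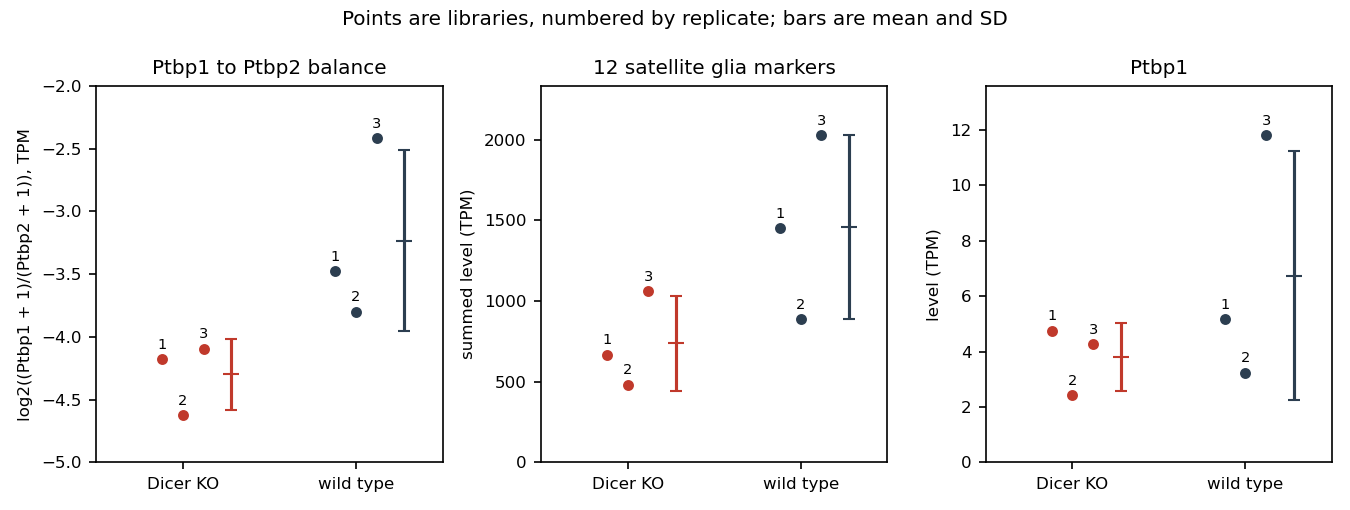
Left, the Ptbp1 to Ptbp2 balance on the log2 scale; middle, the summed TPM of 12 satellite glia markers; right, Ptbp1 in TPM. Points are libraries numbered by replicate, knockout in red on the left of each panel, with mean and SD; wild-type replicate 3 is highest in all 3 panels.

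By the rule of the smallest root mean square difference over the 6 libraries, among genes with a mean of at least 5 TPM, those whose pattern was most like that of Ptbp1 were Abca8a, Prex2 and Plekhb1, at distances of 0.141, 0.157 and 0.17 log2 units. Within the same limit, those most like Ptbp2 were Dpysl5, Ctnna2 and Prune2, at 0.0495, 0.0526 and 0.0546 log2 units. Dpysl5 averaged 86.5 ± 9.41 TPM in knockout and 64.6 ± 5.94 TPM in wild-type libraries (SD, n = 3 each), close to the Ptbp2 values.

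The table also held rows for miR-124 precursors and host genes. The rows Mir124a-2 and Mir124a-3 were listed at 0 in all 6 libraries. The host transcript Mir124a-1hg, listed under its synonym A930011O12Rik, was at 10.01, 7.37 and 10.78 TPM in knockout libraries and at 4.33, 3.8 and 11.31 TPM in wild-type libraries, with overlapping groups (difference 0.60, limma adjusted p = 0.36). Mir124-2hg, listed as 2610100L16Rik, averaged 4.67 ± 1.22 TPM in knockout and 4.63 ± 2.39 TPM in wild-type libraries (SD, n = 3 each; adjusted p = 0.918). Neither a host transcript nor a precursor row at 0 shows the level of the mature microRNA.

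None of the neuronal Elavl genes passed the test. Elavl2, which encodes HuB, was at 299.7, 283.33 and 320.34 TPM in knockout libraries and at 346.53, 309.62 and 291.86 TPM in wild-type libraries. Elavl4, which encodes HuD, was at 291.66, 265.75 and 237.38 TPM in knockout and at 291.82, 264.41 and 253.84 TPM in wild-type libraries. Elavl3, which encodes HuC, was at 90.83, 99.27 and 80.73 TPM in knockout and at 94.06, 75.17 and 81.61 TPM in wild-type libraries. The groups overlapped for all 3 genes. Differences were -0.07 for Elavl2 (95% interval -0.31 to 0.18), -0.03 for Elavl4 (-0.29 to 0.23) and 0.11 for Elavl3 (-0.19 to 0.41), with limma adjusted p of 0.75, 0.905 and 0.657. Elavl2 held 45.9 ± 3.67% of the summed TPM of the 3 genes in knockout and 47.2 ± 0.60% in wild-type libraries.

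The Nova genes, whose proteins control exons of synaptic genes, were near 5 TPM. Nova1 averaged 6.10 ± 0.68 TPM in knockout and 6.09 ± 0.92 TPM in wild-type libraries (SD, n = 3 each; difference 0.00, 95% interval -0.52 to 0.53). Nova2 was at 4.4, 4.31 and 5.44 TPM in knockout libraries and at 4.05, 8.92 and 5.67 TPM in wild-type libraries, where replicate 2 was the highest. Its difference was -0.29 (95% interval -0.96 to 0.39, limma adjusted p = 0.602), and the intervals of the Nova genes were wider than those of any abundant member.

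In all, 1 of 10 members was called higher and 0 lower, where 5.03% of 13787 tested rows were called in either direction and 1.86% were called higher and 3.17% lower. Before adjustment, 3 members passed 0.05 as higher (Rbfox1, Rbfox3 and Ptbp2) and 0 as lower, where 9.77% of all tested rows did so as higher and 14.1% as lower. The groups did not overlap for these 3 of 10 members, a share near the 28.9% of all tested rows that were separated in either direction; in 11.8% of rows the knockout libraries were the higher ones. All 10 members passed the filter at a mean of 1 TPM. The median difference was -0.01 over the members and -0.05 over all tested rows. With median-of-ratios scaling 49.3% of all calls were higher, in place of 36.9%. No stretch of 50 bases was shared between annotated transcripts of any pair of members (0 of 4443 to 9359 stretches per gene), which bears on whether reads of paralogs were split. A gene-level value does not show which exons a transcript held.

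**Figure D4:**
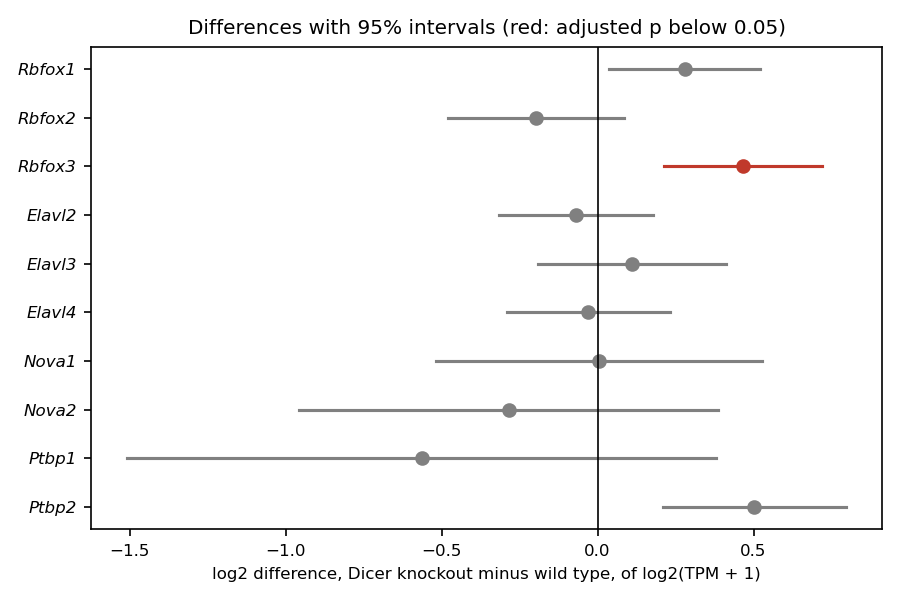
Difference of log2(TPM + 1), Dicer knockout minus wild type (horizontal axis), with 95% intervals from limma for the 10 genes. The intervals of Rbfox1, Rbfox3 (red, adjusted p = 0.0496) and Ptbp2 lie above 0, and that of Ptbp1 is the widest.

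Of 25 listed splicing regulators of other families 21 were tested, 1 fell, 0 rose and 20 did not pass, with a median of -0.02. That count is near the 5.03% called over all rows. Celf4, an RNA-binding protein of excitatory neurons, was at 54.2, 43.97 and 56.43 TPM in knockout libraries, against 110.25, 95.76 and 73.16 TPM in wild-type libraries (fell by 0.83 on the log2 scale, limma adjusted p = 0.0313; called in 2 of 6 fits without a library). Mbnl2 and Mbnl1, the most abundant of the list and known for their loss of function in myotonic dystrophy, averaged 432 ± 41.9 and 387 ± 19.6 TPM in knockout libraries and 360 ± 33.2 and 354 ± 15.8 TPM in wild-type libraries. Ptbp3 and Srrm4 were picked after their values were seen. Ptbp3, the third Ptbp paralog, was at 12.19, 7.57 and 10.95 TPM in knockout libraries and at 7.36, 4.23 and 7.12 TPM in wild-type libraries (adjusted p = 0.197). Srrm4, which promotes inclusion of the Ptbp2 exon that Ptbp1 skips, was at 14, 15.26 and 15.64 TPM in knockout libraries, below 19.92, 18.69 and 19.73 TPM in wild-type libraries, and did not pass (difference -0.36, adjusted p = 0.205).

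General splicing factors were mostly lower in knockout libraries without passing. Of 13 hnRNP genes, which encode abundant nuclear RNA-binding proteins, 12 had a negative difference and 1 fell, with 9 lower at an unadjusted p below 0.05 and a median of -0.44. Over all tested rows 55% had a negative difference and 14.1% were lower at an unadjusted p below 0.05. Hnrnph1, which binds G-rich stretches, was at 99.78, 93.8 and 113.73 TPM in knockout libraries, against 132.94, 170.41 and 159.43 TPM in wild-type libraries (fell by 0.58, limma adjusted p = 0.0415; called in 2 of 6 fits without a library). Hnrnpk averaged 239 ± 19.2 TPM in knockout and 285 ± 25.4 TPM in wild-type libraries, and Hnrnpa2b1 averaged 103 ± 9.58 TPM in knockout and 138 ± 14.6 TPM in wild-type libraries (SD, n = 3 each). Of 12 SR protein genes, which favour exon inclusion, 10 had a negative difference and 0 passed limma (median -0.23). Before adjustment 4 of the 12 were lower and 0 higher. Srsf5 averaged 318 ± 19.7 TPM in knockout and 332 ± 19.6 TPM in wild-type libraries, and Srsf2 averaged 174 ± 17.8 TPM in knockout and 164 ± 17.2 TPM in wild-type libraries.

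Of 22 other RNA-binding proteins of neurons 20 were tested, and 1 fell. Msi2, a translational regulator of the Musashi family, was at 30.15, 33.03 and 33.36 TPM in knockout libraries, against 54.52, 61.06 and 58.92 TPM in wild-type libraries. It fell by 0.83 (limma adjusted p = 0.01) and stayed called in 5 of 6 fits without a library and in 15 of 18 alternatives. The list's median was -0.16. Caprin1, a protein of neuronal RNA granules, averaged 225 ± 5.44 TPM in knockout and 282 ± 26.4 TPM in wild-type libraries (adjusted p = 0.115), and Pcbp3 averaged 228 ± 22.0 TPM in knockout and 205 ± 15.5 TPM in wild-type libraries. The broadly expressed Hu paralog Elavl1, named outside the rule, averaged 25.6 ± 2.40 TPM in knockout and 30.2 ± 3.68 TPM in wild-type libraries (adjusted p = 0.413).

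None of 16 tested targets of miR-124 known from other cells passed limma; before adjustment 1 was higher and 1 lower at the same threshold. Their median was -0.33 and 11 of 16 differences were negative, Ptbp1 being 1 of them. Without each library in turn the median ran from -0.50 (without knockout replicate 3) to -0.11 (without wild-type replicate 3). Among the genes left by a filter at a mean of 5 TPM it was -0.10. With the satellite glia covariate the median was 0.14, of the opposite sign. That covariate overlaps with genotype, so the shift cannot be assigned to glia. Itgb1, an integrin subunit, averaged 191.3 ± 20.98 TPM in knockout and 212 ± 18.7 TPM in wild-type libraries, and Slc16a1, a lactate transporter, averaged 33.0 ± 5.93 TPM in knockout and 47.2 ± 6.96 TPM in wild-type libraries (SD, n = 3 each).

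Transcripts that Ptbp or Hu proteins are known to act on were counted as separate lists, and the difference between the lists was not tested. None of 5 transcripts under Ptbp control passed limma, and 0 did so before adjustment (median 0.13). Among them Dlg4, which encodes PSD-95 and is held down by Ptbp proteins in young neurons, averaged 48.2 ± 4.09 TPM in knockout and 53.1 ± 11.3 TPM in wild-type libraries, and the GABA-B receptor gene Gabbr1 averaged 160 ± 11.1 TPM in knockout and 146 ± 10.1 TPM in wild-type libraries. Of 10 transcripts bound by Hu proteins, 7 were tested and 4 rose, where 1.86% of all tested rows were called higher. This list was chosen with earlier results of these data known, so its count is no test of Hu targets. The cell cycle inhibitor gene Cdkn1a was at 28.96, 19 and 21.63 TPM in knockout libraries, against 6.82, 9.78 and 6.06 TPM in wild-type libraries (2.84-fold higher, limma adjusted p = 0.0117). The neurotrophin gene Bdnf was at 30.46, 37.02 and 26 TPM in knockout libraries, against 16.93, 13.54 and 8.78 TPM in wild-type libraries (rose by 1.22, adjusted p = 0.0268). Myc and Fos, transcription factors induced by stimulation, rose by 1.05 and 0.80 (adjusted p = 0.0292 and 0.0408). Cdkn1a stayed called in 5 of 6 fits without a library, Bdnf and Myc in 2, and Fos in 0. The growth cone gene Gap43 did not pass, at 64.9 ± 18.9 TPM in knockout and 49.2 ± 21.3 TPM in wild-type libraries. With the satellite glia covariate, without knockout replicate 1 and without replicate 3 of both groups, 0 of the listed genes were called. Without knockout replicate 2, wild-type replicate 2 or wild-type replicate 3 the count was 1. With all 6 libraries it was also 1 with no filter on low values or no intensity trend. It was 3 with the replicate block and 4 with median-of-ratios scaling or quantile normalization.

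**Figure D5:**
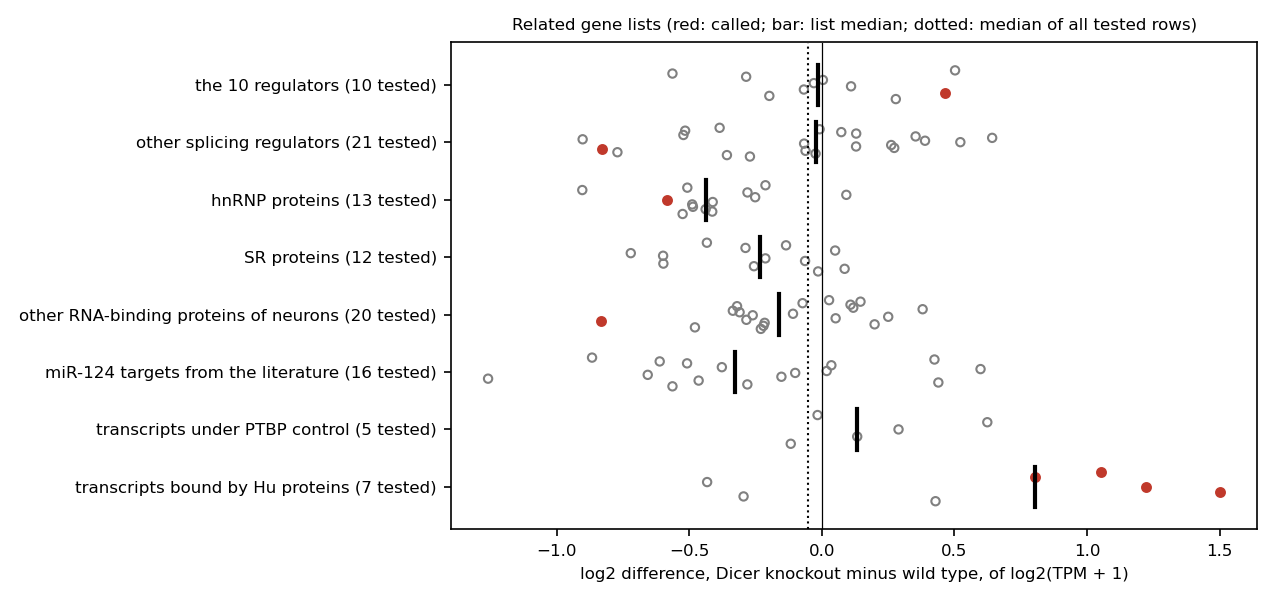
Difference of log2(TPM + 1), Dicer knockout minus wild type (horizontal axis), for each tested gene of the 10 regulators and of 7 related lists. Red points passed the test, thick bars are list medians and the dotted line is the median of all tested rows; the hnRNP bar lies at -0.44.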

How the data were processed

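RNA was extracted with the PicoPure kit and amplified with an Ovation kit before adapter ligation, per the labels' protocols; amplification of small inputs adds noise, mainly to rare transcripts. The submitters' processing notes name RSEM 1.2.7, Bowtie2, cutadapt and the genome build mm10. The authors deposited TPM values, scaled to 1000000 per library, which hide the sequencing depth. RSEM assigns ambiguous reads by a statistical model, so values of close paralogs depend on it.

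R 4.3.3 and limma 3.58.1 were used to fit genotype as the only term to log2(TPM + 1) for 13787 rows (mean TPM of 1 or more), with an intensity trend, two-sided tests and Benjamini-Hochberg adjustment over all rows (threshold 0.05). Fold changes on this scale understate changes of low genes. Ratios and shares were tested by exact permutation over the 6 libraries. The fit was tested on data simulated with independent noise for each gene and library. Such data hold no variation shared between genes, such as that of glial content or sex, so the simulation does not bear on it. UTR sites were found with Python 3.11.15 in GENCODE vM21, which covered 84.2% of tested names.

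The members and lists were chosen with earlier results of these data known. Named were all members, Dicer1, up to 4 called and 2 abundant genes per list, and the 3 nearest patterns of Ptbp1 and Ptbp2. Cpeb4 and Ache were not found by name. The values of 1 gene that this rule names are not reported here. Alternatives covered pseudocount, filter, scaling, trend, weights, replicate block, glial covariate, summed rows and left-out libraries.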

Additional observations from a re-analysis of the deposited data

How the results depend on the processing

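Over 18 alternatives, Rbfox1, Rbfox3, Elavl3 and Ptbp2 kept positive differences, and Rbfox2 and Nova2 negative ones; Elavl2, Elavl4, Nova1 and Ptbp1 changed sign in at least 1, never past the threshold. The count of members called higher (1) was 0 with pseudocounts of 0.1 or 0.5, no filter, no intensity trend, the replicate block, the satellite glia covariate or without replicate 3 of both groups, 2 with a filter at 5 TPM, median-of-ratios scaling, quantile normalization or library weights, and 0 to 0 without each library in turn. No member was called lower in any. Of all rows, 256 rose and 437 fell. Counts were 130 and 248 with no filter, 57 and 168 without the trend, 80 and 114 with the glial covariate, and 65 and 139 without replicate 3 of both groups; 389 rose with quantile normalization. Leaving out each library gave 48 to 348 rises and 116 to 487 falls. The cause of these shifts was not tested. Some of these fits also had fewer libraries. The balance of Ptbp1 to Ptbp2 ranged from -1.35 to -0.66 without each library. Deviations of libraries with the same replicate number correlated weakly (0.0492, 0.0659 and 0.0382). Knockout replicates 2 and 3 correlated best with the wild-type library of the same number, and knockout replicate 1 with wild-type replicate 3 (0.0705). Replicate 3 of both groups shared high Ddx3y. The labels do not state that replicate numbers pair libraries, so the fits were not paired. With the replicate block the balance difference was -1.07 (exact permutation p = 0.25, the smallest possible for 3 pairs). Rbfox3 then had a limma adjusted p of 0.0921. The block gave 6 satellite glia markers called lower in place of 2, 0 hnRNP genes in place of 1, and 2 other splicing regulators in place of 1. Library depth is unknown, so for genes near 5 TPM (Nova1, Nova2, Ptbp1) the spread between libraries sets the precision.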
